A study of Mus musculus with 13 samples.

Results

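The genes described here are Akap1, the gene of the anchoring protein dAKAP1, Larp4 and Pabpc1, whose proteins are known partners of dAKAP1, and Sod2 and Atp5j2, whose messenger RNAs were reported earlier as ligands of its RNA-binding part. They were chosen by name, and all 5 were found among the 27071 features of the count table and passed the filter on low counts that kept 10714 genes. The libraries came from MA-10 cells, an established mouse Leydig tumour line that makes steroids, grown without a treatment named in the labels. In the KHT group (4 libraries), RNA already purified from these cells met a purified bait made of the KH and Tudor domains of dAKAP1. In the negative control group (NEG, 4 libraries with counts), the bait was empty beads with an antibody against maltose-binding protein (MBP), MBP itself, or KHT(GDDG) as the labels write it, and they do not say which library had which. The input group (IPT, 4 libraries) was the RNA that went in, and another NEG library, NEG 2, held 0 counts and was left out. Because the bait was added as protein to RNA freed of cell proteins, the pull-down libraries report binding in solution and not at mitochondria, and Akap1 counts measure its transcript and not the bait.

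dAKAP1 is held in the outer mitochondrial membrane by its N-terminal end and binds the regulatory subunits of protein kinase A, so that the kinase sits at the mitochondrial surface. Toward its C-terminal end it carries a KH domain, a fold that binds single-stranded RNA, and a Tudor domain. Messenger RNAs of mitochondrial proteins can be translated at that surface, and dAKAP1 is one of the proteins known to hold such RNAs there. Larp4 binds poly(A) and the poly(A)-binding protein Pabpc1, and both proteins act in the stability and translation of messenger RNAs.

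Total estimated counts were 1955446 to 3689792 in KHT, 1162178 to 1618998 in NEG and 2487679 to 3085423 in IPT. The NEG libraries were far thinner than these totals show, since 9 dominant features, CT010467.1 and Lars2 foremost, held 96.0% to 98.1% of their counts, against 29.3% to 52.7% in KHT and 26.7% to 38.0% in IPT. That left 31318 to 49062 counts for all other genes in a NEG library, against 929348 to 2101632 in KHT and 1542713 to 2237374 in IPT. Markers of Leydig cells were present in all groups, with 10 of 10 genes in the table and summed levels of 344 to 526 normalised counts-per-million (CPM) in KHT, 8.57 to 400 in NEG and 346 to 630 in IPT. NEG 5 alone held the 400 (97 counts), inside the KHT range, while NEG 1, 3 and 4 held 8.57, 85.2 and 87.8. Markers of Sertoli cells, germ cells, macrophages and endothelium (11 of 15 in the table) summed to 44.9 to 72.0 CPM in KHT, 98.9 to 170 in NEG and 49.2 to 81.2 in IPT. Of these 11, Wt1 and Acrv1 were at 0 in KHT, 7 genes were at 0 in NEG and Sycp3 was at 0 in IPT. Endothelial Pecam1, with 84 counts in NEG, stood at 6.70 ± 4.12 CPM in KHT, 113 ± 61.9 in NEG and 3.62 ± 0.319 in IPT (SD over n = 4 libraries). NEG 5 held 5 of the 84 Pecam1 counts. The log2 fold change of Pecam1 for KHT over NEG was -4.09, and 0.02 when scaled by total counts. For KHT over NEG, 3 of the 10 Leydig genes passed as higher and 0 as lower in edgeR. Over all genes tested, 31% passed as higher and 2.72% as lower. Of the 6 other markers tested, 0 passed as higher and 1, Pecam1, as lower, and the part of such RNA in the results below was not tested.

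The members separated into 2 patterns. Akap1, Larp4, Sod2 and Atp5j2 had similar levels in KHT and IPT and a lower mean in NEG, while Pabpc1 had its highest level in 3 of the 4 NEG libraries. Levels are CPM scaled by TMM (trimmed mean of M values, which sets a library's effective size from the bulk of its genes), and remain shares of a library, so that less of one RNA and more of the others cannot be told apart. KHT and NEG libraries came from RNA purified before the bait was added, so their levels describe RNA recovered and not numbers of cells. Tests are edgeR quasi-likelihood tests over all 10714 genes, called at a Benjamini-Hochberg adjusted p under 0.05. They measure the spread between these libraries, which may be technical, because nothing in the labels names separate cultures. Within NEG that spread may also hold differences between the control baits, which the labels do not assign to libraries.

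**Figure D1:**
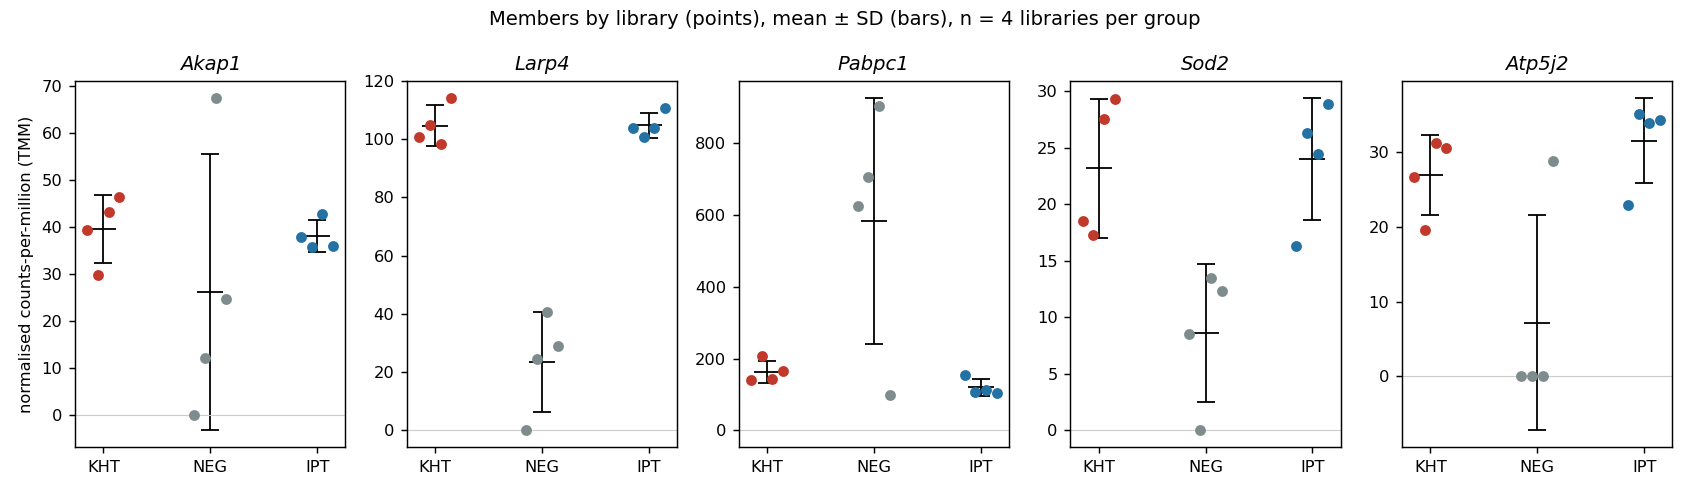
TMM-normalised counts-per-million (vertical axes, one scale per gene) of the 5 genes in each KHT, NEG and IPT library, with the mean and SD of 4 libraries per group. KHT and IPT points lie side by side for all 5 genes, while Pabpc1 stands at 98.9 to 905 in NEG and Atp5j2 is at 0 in 3 of 4 NEG libraries.

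Akap1 lies on chromosome 11 (88830792 to 88864596, GRCm38.p6). Its levels were 39.3, 29.7, 43.2 and 46.4 CPM in KHT 1 to 4, against 37.8, 35.7, 42.8 and 35.9 CPM in IPT 1 to 4. These groups overlap, and KHT 2 was the lowest of the 8 libraries. The means were 39.7 ± 7.22 CPM in KHT and 38.1 ± 3.33 CPM in IPT (SD over n = 4 libraries), a log2 fold change of 0.06 (SE 0.45, edgeR adjusted p = 1.00). Akap1 counts in NEG were 0, 2, 10 and 6 in NEG 1, 3, 4 and 5, or 0, 12.2, 67.5 and 24.7 CPM. NEG 4 exceeded every KHT library and NEG 1 had none, so the NEG mean of 26.1 ± 29.4 CPM carries a spread larger than itself. Akap1 did not pass for KHT over NEG (log2 fold change 0.72, SE 0.60, edgeR adjusted p = 0.320) or for NEG over IPT (-0.66, SE 0.60, adjusted p = 0.359). The first estimate was 1.71 without NEG 4 (edgeR adjusted p = 0.0593) and 0.28 without NEG 1 (0.668), and the second -1.65 (0.0639) and -0.22 (0.736). Scaled by total counts both passed (4.85, edgeR adjusted p = 3.2e-07, and -5.04, 1.7e-07), where the median gene stood at 5.67 and -5.92.

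Larp4, on chromosome 15 (99970065 to 100016358, GRCm38.p6), had the lowest coefficient of variation of the 5 members within KHT and within IPT, though not within NEG (72.7%, against 58.9% for Pabpc1). KHT 1 to 4 held 101, 105, 98.5 and 114 CPM, against 104, 101, 104 and 111 CPM in IPT 1 to 4. The 2 groups interleave, with coefficients of variation of 6.67% in KHT and 4.11% in IPT. The mean was 105 ± 6.98 CPM in KHT and 105 ± 4.31 CPM in IPT (SD over n = 4 libraries), with a log2 fold change of -0.003 (SE 0.59, edgeR adjusted p = 1.00), a sign that turned in the 2 groups alone and with some libraries left out. Larp4 counts in NEG were 0, 4, 6 and 7 in NEG 1, 3, 4 and 5, or 0, 24.3, 40.5 and 28.9 CPM, all below every KHT and every IPT library. Larp4 was higher in KHT than in NEG (log2 fold change 2.21, SE 0.70, edgeR adjusted p = 0.0228) and lower in NEG than in IPT (-2.22, SE 0.70, adjusted p = 0.0217). Both calls ended when only the 2 groups compared were fitted (edgeR adjusted p = 0.109 and 0.0827), and both kept their direction and their side of the threshold with any one library left out.

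Sod2 encodes the manganese superoxide dismutase of the mitochondrial matrix and lies on chromosome 17 (13007839 to 13018119, GRCm38.p6). Its levels were 18.5, 17.3, 27.6 and 29.3 CPM in KHT 1 to 4, against 16.3, 26.3, 24.5 and 28.9 CPM in IPT 1 to 4. KHT 1, KHT 2 and IPT 1 were low and the other 5 high, so each group held libraries of both kinds. The means were 23.2 ± 6.15 CPM in KHT and 24.0 ± 5.43 CPM in IPT (SD over n = 4 libraries; log2 fold change -0.05, SE 0.31, edgeR adjusted p = 1.00). NEG 1, 3, 4 and 5 held 2, 0, 2 and 3 Sod2 counts, or 8.57, 0, 13.5 and 12.4 CPM. No NEG library reached the lowest KHT or IPT library, and the tests did not pass for KHT over NEG (log2 fold change 1.39, SE 0.58, edgeR adjusted p = 0.0675) or NEG over IPT (-1.44, SE 0.58, adjusted p = 0.0560). Without NEG 5 both passed (edgeR adjusted p = 0.0375 and 0.0318), and without IPT 1 the second did (0.0458). Both passed in DESeq2 (adjusted p = 0.0367 and 0.0261), and NEG over IPT passed with no filter on low counts (edgeR adjusted p = 0.0423).

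Atp5j2, also named Atp5mf, encodes the f subunit of the membrane part of ATP synthase and lies on chromosome 5 (145183704 to 145191541, GRCm38.p6). KHT 1 to 4 held 26.8, 19.6, 31.2 and 30.6 CPM, against 23.0, 35.1, 34.0 and 34.3 CPM in IPT 1 to 4. The KHT values lie below 3 of the IPT libraries and around IPT 1, with means of 27.0 ± 5.35 CPM in KHT and 31.6 ± 5.75 CPM in IPT (SD over n = 4 libraries; log2 fold change -0.22, SE 0.39, edgeR adjusted p = 1.00). All 7 Atp5j2 counts of NEG were in NEG 5 (28.9 CPM), a level inside the KHT range, and NEG 1, 3 and 4 were at 0. Atp5j2 did not pass for KHT over NEG (log2 fold change 1.64, SE 0.70, edgeR adjusted p = 0.0700) and was lower in NEG than in IPT (-1.87, SE 0.69, adjusted p = 0.0409). The first comparison passed without NEG 5 (edgeR adjusted p = 0.000689), in DESeq2 (0.0152), in limma voom (0.0221) and with no filter (0.0358). The second ended without NEG 1 (edgeR adjusted p = 0.131), NEG 3 (0.104), NEG 4 (0.0998), IPT 2 (0.0668), IPT 3 (0.0640) or IPT 4 (0.0654). It also ended with dominant features left out (0.0792), a mean of at least 10 CPM (0.0645), the 2 groups alone (0.0625) and values halved (0.0588).

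Pabpc1 encodes the main cytoplasmic poly(A)-binding protein and lies on chromosome 15 (36595658 to 36609581, GRCm38.p6). Its levels were 140, 206, 142 and 165 CPM in KHT 1 to 4, against 155, 108, 113 and 103 CPM in IPT 1 to 4. All KHT libraries lay above 3 of the IPT libraries, and IPT 1 fell inside the KHT range. The means were 163 ± 30.6 CPM in KHT and 120 ± 23.9 CPM in IPT (SD over n = 4 libraries), the largest difference of the 5 members between these groups, which did not pass (log2 fold change 0.45, SE 0.72, edgeR adjusted p = 1.00). In the NEG libraries Pabpc1 had 146, 116, 134 and 24 counts in NEG 1, 3, 4 and 5, more than the other 4 members together in each of them. On the TMM scale these counts are 625, 706, 905 and 98.9 CPM. NEG 1, 3 and 4 stood above every KHT and IPT library and NEG 5 below all 8, giving a NEG mean of 584 ± 344 CPM (SD over n = 4 libraries). NEG 5, which also held all Atp5j2 counts of NEG, is the NEG library with Leydig markers at the KHT level, and the part of that RNA in these values was not tested.

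Pabpc1 was higher in NEG than in IPT (log2 fold change 2.29, SE 0.76, edgeR adjusted p = 0.0263), while KHT over NEG did not pass (-1.84, SE 0.75, adjusted p = 0.0604). The call in NEG over IPT ended without NEG 4 (edgeR adjusted p = 0.0518), IPT 1 (0.0564), IPT 2 (0.0728), IPT 3 (0.0696) or IPT 4 (0.0755), with no filter on low counts (0.153) and in the 2 groups alone (0.0832). KHT over NEG passed as lower without NEG 1 (edgeR adjusted p = 0.0443) or NEG 5 (0.00118), in DESeq2 (adjusted p = 0.00353), with the dominant features left out (0.0417), with a mean of at least 10 CPM required (0.0408) and with values halved, in case both mates of a pair were counted (0.0484). Scaled by total counts the directions turned, with Pabpc1 higher in KHT than in NEG (log2 fold change 2.40, edgeR adjusted p = 0.00196) and lower in NEG than in IPT (-2.22, adjusted p = 0.00341). That scaling also moved the median gene, from a log2 fold change of 1.73 to one of 5.67 for KHT over NEG. Relative to the median gene, Pabpc1 stood at -3.59 to -3.25 for KHT over NEG and at 3.69 to 4.04 for NEG over IPT over the 5 scalings tried. Rescaling libraries moves all genes nearly alike, so the narrowness of these ranges is no test of Pabpc1. Pabpc1 stood at -8.38 and 8.82 without NEG 5, where most genes tested are at 0 in NEG, and at -2.53 and 2.99 in limma voom.

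The share of Pabpc1 among the counts of the 5 members does not depend on any scaling. It was 43.0%, 54.5%, 41.4% and 42.8% in KHT 1 to 4, then 98.6%, 95.1%, 88.2% and 51.1% in NEG 1, 3, 4 and 5, against 46.1%, 35.3%, 35.4% and 32.9% in IPT 1 to 4. NEG 5 fell inside the KHT range and the other 3 NEG libraries lay above all others. The 95% Wilson intervals reached from 82.1% to 92.4% in NEG 4 and from 37.2% to 64.7% in NEG 5, which had 47 counts of the 5 genes, and they cover counting error only. In pooled counts there were 1.52 Pabpc1 counts for each Larp4 count in KHT (95% exact interval 1.44 to 1.60), 24.7 in NEG (15.3 to 42.8) and 1.15 in IPT (1.10 to 1.20), with intervals for counting error only. The NEG libraries were unlike in this, with 3.43 in NEG 5 alone (24 and 7 counts, 1.43 to 9.42) and 39.6 in the other 3 (396 and 10 counts, 21.3 to 83.2). For each Akap1 count there were 3.89 Pabpc1 counts in KHT, 23.3 in NEG and 3.19 in IPT. Pabpc2, a gene of the same family, held 6 counts in KHT, 7 in NEG and 0 in IPT. Because the NEG libraries were thin, these are mean levels of 0.239, 9.92 and 0 CPM. Its NEG counts were 2, 4, 1 and 0 in NEG 1, 3, 4 and 5, and it did not pass the filter on low counts. Reads shared between such near-identical copies cannot be assigned with certainty.

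**Figure D2:**
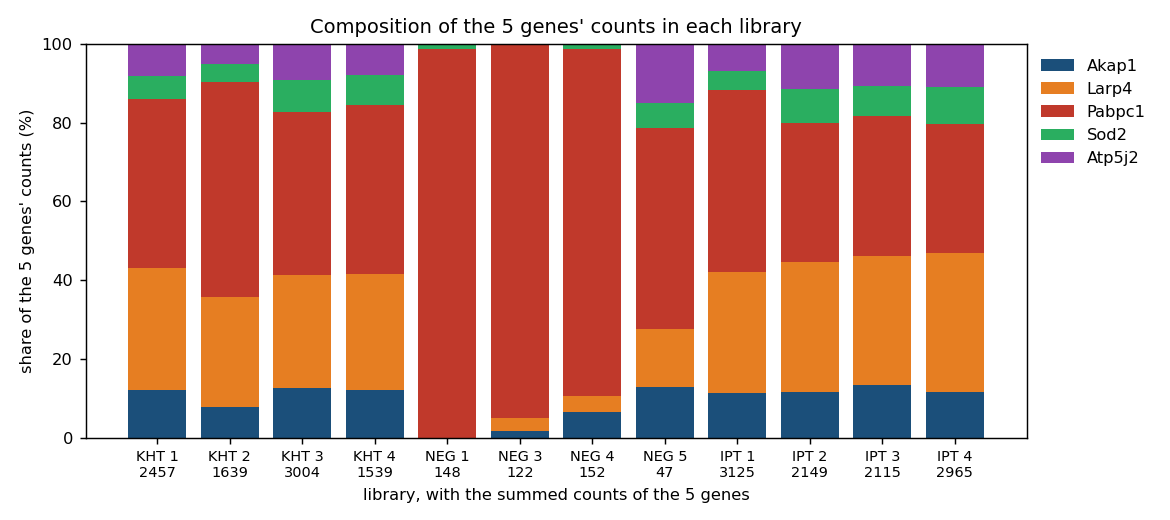
Share of each of the 5 genes in their summed counts (vertical axis, percent) for each library, with the summed counts printed under the library's name. Pabpc1 takes 88.2% to 98.6% in NEG 1, 3 and 4, and 32.9% to 54.5% in the KHT and IPT libraries, and NEG 5 (51.1%) lies within that range.

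For KHT over NEG, 1 of the 5 members passed as higher (Larp4) and none as lower, beside 31% of all genes tested as higher and 2.72% as lower (33.7% in all). The level in every KHT library exceeded every NEG library for 2 of 5 members, Larp4 and Sod2, beside 45.8% of all genes, and for none was every KHT library lower, beside 1.02%. The median log2 fold change over all genes was 1.73, or 0.94 when genes at 0 in a group were set at a bound of 3 counts over that group. Relative to the first median, Larp4 stood at 0.48, Atp5j2 at -0.09, Sod2 at -0.34, Akap1 at -1.01 and Pabpc1 at -3.57. Against the second median of 0.94, the log2 fold changes of Larp4 (2.21), Atp5j2 (1.64) and Sod2 (1.39) lay above. Those of Akap1 (0.72) and Pabpc1 (-1.84) lay below it. Without NEG 5 the median itself was 6.24, because 6539 of the 11484 genes tested were then at 0 in NEG, whose fitted changes are no measure of size. Larp4 then stood at -3.77, Atp5j2, at 0 itself, at 3.91, Sod2 at -4.52, Akap1 at -5.42 and Pabpc1 at -8.38. In this setting the median lies among genes at 0 in NEG, so a gene with NEG counts tends to fall below it. The signs there follow from which members had NEG counts and cannot be set against those of the main fit. In limma voom, Akap1 (0.46), Sod2 (0.20) and Atp5j2 (1.37) turned to above the median gene. Larp4 stood at 1.77 there and Pabpc1 at -2.53. For NEG over IPT, Larp4 and Atp5j2 passed as lower and Pabpc1 as higher, beside 32.5% of all genes as lower and 3.64% as higher (36.1% in all). Larp4 and Sod2 did not overlap there, with every NEG library lower, as for 47.1% of all genes, and none lay wholly higher in NEG, as 1.74% did. These 2 comparisons share the NEG libraries. The filter on low counts asks for counts in as many libraries as a group holds. Akap1, Larp4, Sod2 and Atp5j2 were at 0 in at least 1 NEG library, so they met it through KHT and IPT libraries. So did most of the genes tested, since NEG 1 held counts for only 2173 features. The shares called in these comparisons are thus taken among genes kept largely for their counts in KHT and IPT. The shares of members called are thus near those of all genes, save that few genes went the way of Pabpc1.

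**Figure D3:**
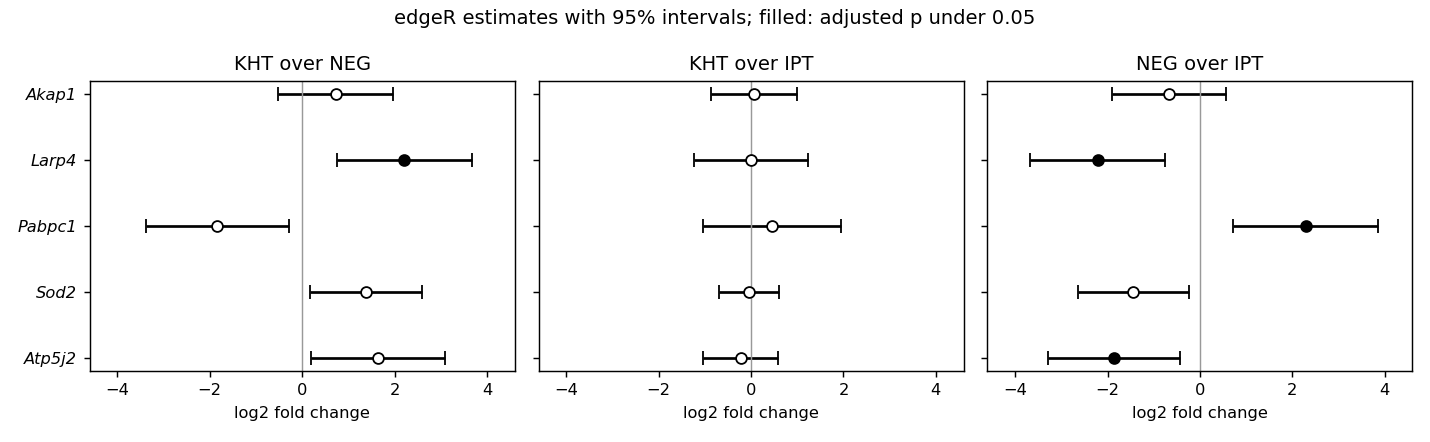
edgeR log2 fold changes (horizontal axes) of the 5 genes for KHT over NEG, KHT over IPT and NEG over IPT, with 95% intervals, where filled points passed at an adjusted p under 0.05. All 5 intervals for KHT over IPT span 0, and Pabpc1 lies on the other side of 0 from the other 4 genes where NEG enters, a direction that turns under scaling by total counts.

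The comparison of KHT with IPT asks which RNAs the bait took up beyond their share in the RNA offered to it. None of the 5 members passed in edgeR, where 0.00933% of all genes were called higher (1 gene) and 0% lower, with 175 genes at an unadjusted p under 0.05. DESeq2, limma voom and the other settings likewise called no member. The 2 groups overlapped for all 5 members, while 0.84% of all genes were higher and 1.17% lower in every KHT library than in every IPT library. The shared fit takes its spread partly from the thin NEG libraries, so intervals were also taken from a fit of the 8 KHT and IPT libraries alone. There the fold of KHT over IPT was 1.05 for Akap1 (95% interval 0.824 to 1.33), 1.00 for Larp4 (0.843 to 1.19), 0.967 for Sod2 (0.682 to 1.37) and 0.859 for Atp5j2 (0.640 to 1.15). For the reported ligands Sod2 and Atp5j2, then, an enrichment over input above 1.37-fold and 1.15-fold lies outside these intervals. Pabpc1 stood at 1.37-fold (1.05 to 1.79), with an edgeR adjusted p = 0.997 over the 10908 genes of that fit. Under total counts the median gene moved to -0.24 for KHT over IPT, and Akap1 with it to -0.19 on the log2 scale. Relative to the median gene, Akap1 stood at 0.05 to 0.06 and Pabpc1 at 0.41 to 0.44 over the 5 scalings. Rescaling moves all genes nearly alike, so these narrow ranges were largely fixed in advance and are no test.

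Ratios between members within a library need no scaling, and none of the 10 pairs passed for KHT against IPT (two-sided exact permutation tests over 70 assignments, adjusted over the 10 pairs). The largest difference was that of Pabpc1 over Atp5j2, with a mean log2 ratio of 2.60 ± 0.539 in KHT and 1.92 ± 0.557 in IPT (SD over n = 4 libraries; exact permutation p = 0.114, adjusted p = 0.429). The mean log2 ratio of Larp4 over Pabpc1 was -0.63 ± 0.231 in KHT and -0.17 ± 0.289 in IPT (SD over n = 4 libraries; exact permutation p = 0.114, adjusted p = 0.429). The pair of ligands, Sod2 over Atp5j2, stood at -0.24 ± 0.202 in KHT and -0.41 ± 0.112 in IPT (SD over n = 4 libraries; exact permutation p = 0.200, adjusted p = 0.429). With 4 libraries against 4 the smallest possible p is 0.0286, so no single pair could pass after adjustment over 10 pairs, and these tests say nothing of whether one pair differed.

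Across the 8 KHT and IPT libraries, Atp5j2 was low where Pabpc1 was high, with KHT 2 at one end (19.6 and 206 CPM) and IPT 2, 3 and 4 at the other (34.0 to 35.1 and 103 to 113 CPM). Pearson's r was -0.86 (n = 8, exact permutation p = 0.00377, adjusted p = 0.0377 over 10 pairs) and Spearman's rho -0.86 (exact permutation p = 0.0107, adjusted p = 0.107). Both permutations took the 8 libraries as exchangeable. Yet KHT 2 and IPT 1, the libraries with the lowest Atp5j2, shared deviations over 4650 genes (r = 0.635). These p-values therefore cannot tell a link of the 2 genes from a shift of whole libraries. The KHT mean was higher than the IPT mean for Pabpc1 and lower for Atp5j2, so these p-values include the difference between the groups. Without KHT 2 and IPT 4, the libraries farthest from the median of Pabpc1, r was -0.68. Within groups of 4, r was -0.80 in KHT and -0.98 in IPT, too few libraries for a test. The value in IPT rests on IPT 1, which stood apart from IPT 2, 3 and 4 in both genes (23.0 and 155 CPM). Sod2 and Atp5j2 were low in the same libraries (KHT 1, KHT 2 and IPT 1). Pearson's r was 0.86 (n = 8, exact permutation p = 0.00856, adjusted p = 0.0428) and Spearman's rho 0.62 (exact permutation p = 0.115, adjusted p = 0.575). Sod2 falls into separate low and high sets, so this r can rest on the gap between them, and it was 0.67 without IPT 1 and KHT 2. The limits given for Pabpc1 and Atp5j2 hold here too. Larp4 kept within 98.5 to 114 CPM throughout.

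**Figure D4:**
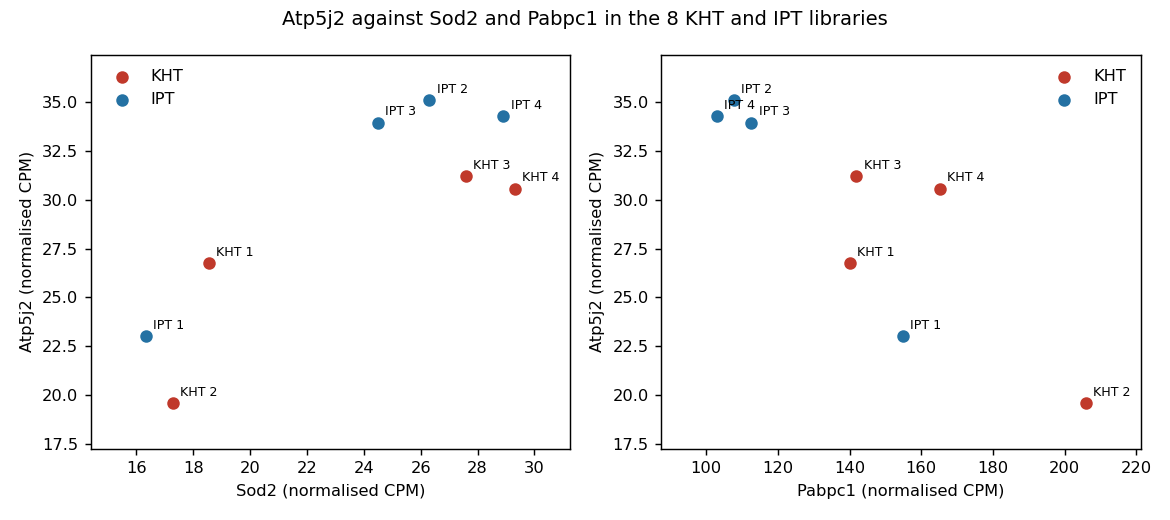
Atp5j2 (vertical axes) against Sod2 and against Pabpc1 (horizontal axes), all in TMM-normalised counts-per-million, in the 4 KHT and 4 IPT libraries named beside the points. KHT 2 and IPT 1 have the lowest Atp5j2 (19.6 and 23.0) with low Sod2 and high Pabpc1.

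The genes with the most similar pattern over these 8 libraries, by Pearson's r of log2(CPM + 1) among 2643 named genes of at least 20 CPM, differed from member to member. They were Mcm7 (0.97) and Mast2 (0.96) for Akap1, H3f3b (0.89) and Sbno2 (0.89) for Larp4, and Eif1 (0.99) and Rps15 (0.94) for Pabpc1. Sod2 was closest to Gpi1 (0.99) and Clu (0.99), and Atp5j2 to Trim28 (0.98) and Tnfrsf12a (0.97). These r are descriptions over 8 libraries that share depth and composition, and the search takes the highest of many values.

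Among 24 tested genes of the poly(A)-binding and LARP families and of proteins that bind Pabpc1, 7 passed as higher and 3 as lower for KHT over NEG (median log2 fold change 1.08, and 1.03 with genes at 0 set at their bound). Over all genes tested, 31% passed as higher and 2.72% as lower. Paip1, whose protein binds Pabpc1 and favours translation, went the way of Pabpc1. It had 26.0 ± 5.25 CPM in KHT, 136 ± 89.7 in NEG and 21.5 ± 3.03 in IPT (SD over n = 4 libraries; KHT over NEG log2 fold change -2.36, edgeR adjusted p = 0.00776). By library Paip1 held 150, 170, 216 and 8.24 CPM in NEG 1, 3, 4 and 5, so NEG 5 stood apart for it as for Pabpc1. Tnrc6b, a scaffold of microRNA silencing that also binds Pabpc1, stood at 85.2 ± 17.9 CPM in KHT, 818 ± 200 in NEG and 80.1 ± 9.81 in IPT (KHT over NEG -3.26, edgeR adjusted p = 0.00486). Its NEG libraries held 648 to 1102 CPM, NEG 5 included. Pabpn1, the nuclear poly(A)-binding protein gene, was the third lower one (-1.79, edgeR adjusted p = 0.0152), and it lost the call without NEG 1 (0.219) or NEG 3 (0.0611) and in limma voom (0.141). Under total counts Paip1 (log2 fold change 1.89), Tnrc6b (0.78, edgeR adjusted p = 0.189) and Pabpn1 (2.25) had positive changes for KHT over NEG, and Paip1 was not called by limma voom (adjusted p = 0.108) or in the 2 groups alone (edgeR adjusted p = 0.0502).

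Genes of the same families also went the way of Larp4. Pabpc4, the inducible cytoplasmic relative of Pabpc1, picked after its values were seen, had 49.5 ± 2.69 CPM in KHT, 6.09 ± 12.2 in NEG and 43.8 ± 4.24 in IPT (SD over n = 4 libraries; KHT over NEG 3.24, edgeR adjusted p = 0.0062). All 4 of its NEG counts were in NEG 3, where Pabpc1 had 116. Usp10, a deubiquitinase with a Pabpc1-binding motif, was at 0 in all NEG libraries, and its KHT level was at least 6.12-fold higher than 3 counts in that whole group would give (edgeR adjusted p = 0.00256). Atxn2l, related to ataxin-2, was counted 677 times in KHT, against 3 times in NEG, a ratio of levels of 7.22 (95% interval of the counts 2.46 to 35.1; edgeR adjusted p = 0.00613). Of the LARP relatives tested, Larp1b passed as higher (299 counts in KHT, against 2 in NEG; log2 fold change 2.23, edgeR adjusted p = 0.0449), a call that ended without any one library other than NEG 4 and KHT 2, with adjusted p up to 0.141 (without NEG 1). Larp1 (1.06, edgeR adjusted p = 0.188), Larp4b (1.10, adjusted p = 0.121) and Larp7 (0.32, adjusted p = 0.707) did not pass.

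**Figure D5:**
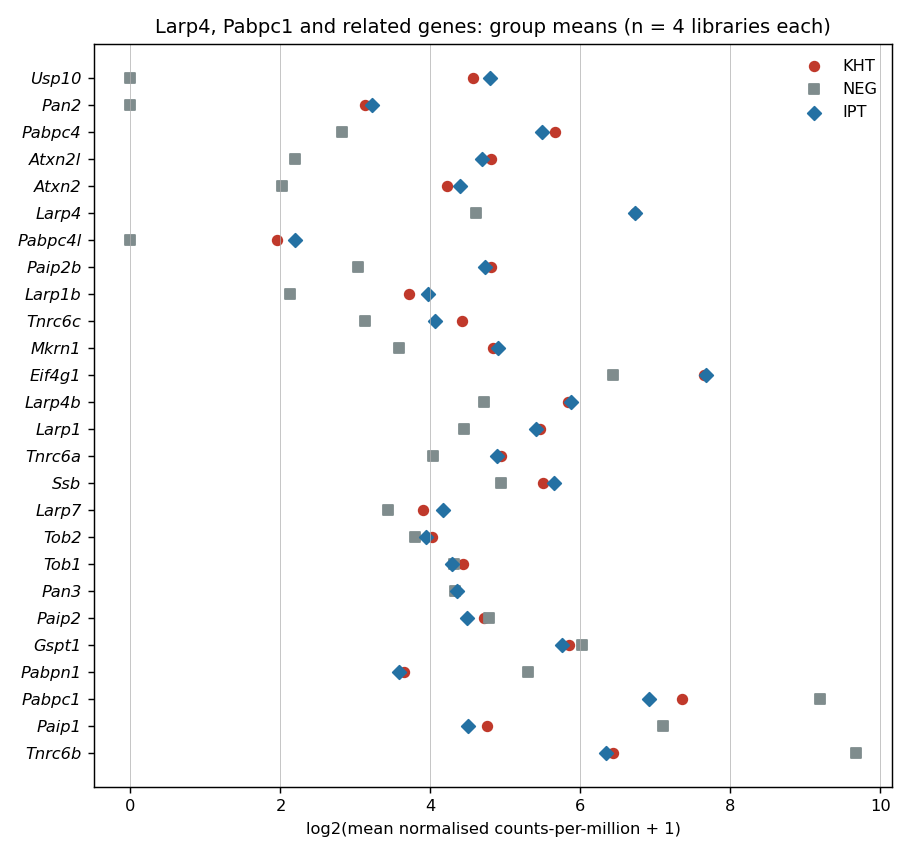
Group means of Larp4, Pabpc1 and the 24 related genes tested, as log2(mean normalised counts-per-million + 1) on the horizontal axis, ordered from the highest to the lowest difference between KHT and NEG. KHT and IPT points nearly coincide, while the NEG points of Pabpn1, Pabpc1, Paip1 and Tnrc6b lie to their right on this TMM scale and those of most other genes to their left. Under total counts Pabpc1, Paip1 and Pabpn1 were lower in NEG than in KHT, and Tnrc6b did not pass (log2 fold change of KHT over NEG 0.78, edgeR adjusted p = 0.189).

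Of 12 tested genes of the mitochondrial surface that bind or place RNA, 7 passed as higher for KHT over NEG and none as lower, with a median log2 fold change of 1.93 (1.48 with bounds) beside 1.73 (0.94) over all genes. For comparison with this list and the next, 31% of all genes tested passed as higher and 2.72% as lower. Cluh, which binds messenger RNAs of mitochondrial proteins, was counted 1007 times in KHT, against 2 times in NEG, a ratio of levels of 16.1 (95% interval of the counts 4.45 to 133; edgeR adjusted p = 0.00273). Fmr1, the gene of an RNA-binding protein (775 counts in KHT and 3 in NEG, ratio 8.26, interval 2.82 to 40.2), also passed (edgeR adjusted p = 0.00495). Of 11 tested enzymes and subunits reported to be held by AKAP1, 2 were higher in KHT and none lower (median 1.60). They were the phosphatase gene Ptpn21 (397 and 2 counts, ratio 6.35, interval 1.75 to 52.6; edgeR adjusted p = 0.0168, 0.0572 without NEG 1) and Dnm1l of mitochondrial fission. Dnm1l had 31.4 ± 6.84 CPM in KHT, against 10.2 ± 12.2 in NEG (SD over n = 4 libraries; edgeR adjusted p = 0.0479), and its call ended without any one library other than NEG 3 and NEG 5, with adjusted p between 0.0502 (without IPT 1) and 0.136 (without NEG 1).

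Among the 21 other genes of ATP synthase, 6 passed as higher and 2 as lower for KHT over NEG (median log2 fold change 0.92, 0.87 with bounds). For comparison with this list and the next, 31% of all genes tested passed as higher and 2.72% as lower. Atp5j, a peripheral stalk subunit, rose to 31.3 ± 6.15 CPM in KHT, against 5.10 ± 6.11 in NEG (SD over n = 4 libraries; 2.62, edgeR adjusted p = 0.0083). Atp5e of the catalytic part was at 0 in NEG and at least 2.71-fold higher (edgeR adjusted p = 0.0084). Usmg5, a small membrane subunit, was lower in KHT at 17.6 ± 2.30 CPM, against 66.9 ± 51.0 in NEG (-1.84, edgeR adjusted p = 0.00775). It ended without NEG 4 (0.0510) and in limma voom (0.0550), and was higher in KHT under total counts (2.35). For enzymes that remove superoxide and peroxide, 3 of 10 passed as higher for KHT over NEG and none as lower (median 0.41). These were Gpx4 (2.56, edgeR adjusted p = 0.0253), Prdx3 (1.98, adjusted p = 0.0336) and Cat (2.02, adjusted p = 0.0411), of which each lost its call without NEG 1 (0.0515, 0.101 and 0.128), NEG 3 (0.0651, 0.0869 and 0.0933) or NEG 4 (0.0607, 0.0867 and 0.0897). Cat and Prdx3 also lost it without KHT 1 (0.0634 and 0.0509) or KHT 3 (0.0621 and 0.0515), and Cat without KHT 4 (0.0553), IPT 2 (0.0518), IPT 3 (0.0515) or IPT 4 (0.0517). Sod1, the cytosolic counterpart of Sod2, did not pass (1.01, edgeR adjusted p = 0.257).

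With one NEG library left out in turn, chosen after the values were seen, the list counts moved both ways. The whole table moved too. With any one library left out, 1721 to 5421 of all genes were higher for KHT over NEG and 174 to 454 lower. The list counts cannot be read apart from that shift. Without NEG 1 the counts higher for KHT over NEG were 4 of the poly(A) and LARP list, 7 of the mitochondrial surface list, 1 of the AKAP1-anchored list, 4 of ATP synthase and 0 of the superoxide and peroxide list, which was also at 0 without NEG 3 or NEG 4. Without NEG 5 they were 11 of the poly(A) and LARP list, 9 of the mitochondrial surface list, 6 of the AKAP1-anchored list, 13 of ATP synthase and 5 of the superoxide and peroxide list. The counts lower were then 2 in the superoxide and peroxide list and 3 in ATP synthase, against 0 in ATP synthase without NEG 4. For KHT over IPT, none of the genes tested in these 5 lists passed in edgeR, with medians between -0.12 and 0.04 beside 0.01 over all genes. The ATP synthase gene with the smallest p in it was Atp5k, at 6.18 ± 3.99 CPM in KHT and 11.3 ± 4.06 in IPT (SD over n = 4 libraries; -0.90, edgeR adjusted p = 1.00). In the other 4 lists the genes with the smallest p were Synj2 (0.41), Tnrc6c (0.37), Ccs (-0.58) and Prkar2b (0.22), given as log2 fold changes that did not pass.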

How the data were processed

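The submitters sequenced ribosomal RNA-depleted, stranded total RNA libraries, per the labels' protocols; the labels' molecule field names polyA RNA instead, which was not settled. The authors deposited unscaled estimated counts for 13 libraries; kallisto and DESeq2 with GRCm38 and mm10 are named per the submitters' processing notes, without versions or roles, and how reads of similar genes were shared or strand was used was not stated there. Values were already whole, so rounding changed 0. Values of 2 outnumbered values of 1 in all 12 libraries, as counting both mates of a pair would give, so halved values were tried. Titles set the groups, since the description of the KHT libraries speaks of negative controls.

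Symbols matched 27004 of 27071 identifiers, and coordinates are from RefSeq GRCm38.p6. edgeR 4.0.16 in R 4.3.3 (limma 3.58.1, DESeq2 1.42.0) fitted the 3 groups with TMM factors and filterByExpr. SE is the log2 fold change over the square root of the F statistic, and intervals are 95%. TMM factors were 2.05 to 3.12 in KHT, 0.0986 to 0.199 in NEG and 2.71 to 3.15 in IPT. The 9 dominant features each held 0.5% or more of the NEG counts. Ratios used a pseudocount of 0.5. Genes at 0 in a group were set against a floor of 3 counts over the group, and such limits hold for counting error alone and are too narrow if both mates were counted. The procedure was also run on simulated data in which every group had the same mean level per gene, save for genes raised in KHT. The NEG libraries here are unlike that, so the simulation does not bear on comparisons with NEG.

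Alternatives were DESeq2, limma voom, total counts, TMMwsp, dominant features left out, no filter, a mean of at least 10 CPM, 2 groups alone, a replicate block, halved values and each library left out. The rule for named genes took the 5 members, the genes of each list with the smallest p (4 for KHT over IPT, 3 for KHT over NEG) and 2 genes of like pattern per member. One gene that this rule names is not reported here. Members, lists and tests were chosen with earlier results of these data known. Transcript lengths were not used here, so levels were not compared between genes.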

Additional observations from a re-analysis of the deposited data

Results flagged for a closer look

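Atp5j2 in NEG: its highest library, NEG 5 at 28.9 CPM, lay far from the others, which were all at 0. Atp5j2 in IPT: its lowest library, IPT 1 at 23.0 CPM, lay apart from 34.0 to 35.1 CPM in the other 3. These were 2 of 15 groups of 4 libraries examined, and chance flags about 1 in 20 groups of continuous values, a rate that does not hold for thin counts. With 3 of 4 libraries at 0, Atp5j2 in NEG had to be picked out.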

How the results depend on the processing

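The NEG libraries limit every comparison that includes them: the 5 genes had 7 to 420 counts over 4 libraries, so that calls there rest on few counts and single libraries. Members called for KHT over NEG numbered 3 higher and 1 lower in DESeq2, 2 higher in limma voom and with no filter, 5 higher under total counts, 0 higher in the 2 groups alone, and 1 lower with dominant features left out, a mean of at least 10 CPM or values halved. For NEG over IPT, members numbered 0 higher and 5 lower under total counts, 0 higher with no filter, 0 higher and 0 lower in the 2 groups alone, and 1 lower with dominant features left out, a mean of at least 10 CPM or values halved. Over all genes, KHT over NEG had 10428 higher and 14 lower under total counts, 791 lower with no filter and 2103 higher in the 2 groups alone. NEG over IPT had 50 higher and 10423 lower under total counts, 987 higher with no filter and 2046 lower in the 2 groups alone. KHT over IPT had 4 higher and 3 lower in DESeq2, 8 lower in limma voom, 43 higher and 13 lower with no filter, 1 lower in the 2 groups alone, 0 higher and 1 lower with values halved, and 0 higher under total counts, with dominant features left out or with a mean of at least 10 CPM. Total counts turned Pabpc1 to 2.40 for KHT over NEG and -2.22 for NEG over IPT and Akap1 to -0.19 for KHT over IPT, and the 2 groups alone turned Larp4 to 0.00104 for KHT over IPT (log2 fold changes); beyond the shift of the median gene under total counts, the cause was not tested.

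With one library left out, KHT over NEG had 1721 to 5421 genes higher and 174 to 454 lower, with 1 to 3 members higher and 0 to 1 lower. NEG over IPT had 310 to 512 higher and 1792 to 5447 lower, with 0 to 1 members higher and 1 to 3 lower. KHT over IPT had 0 to 2 higher and 0 to 2 lower and called no member, and its log2 fold changes spanned 0 for Akap1 (-0.025 to 0.175), Larp4 (-0.051 to 0.0241) and Sod2 (-0.197 to 0.0644). So did the differences in log2 ratio for Larp4 over Sod2 (-0.0776 to 0.222), Akap1 over Larp4 (-0.0273 to 0.183) and Akap1 over Sod2 (-0.026 to 0.273).

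Same-numbered KHT and IPT libraries had deviations correlated at -0.525 to 0.175 over 4650 genes, so the numbers were not taken to pair the samples. KHT and IPT libraries of unlike number ran from -0.592 to 0.635, the highest being KHT 2 with IPT 1. Libraries of the 2 groups thus shared deviations that the tests did not model, and their source was not tested. With a replicate block, KHT over NEG had 5042 genes higher, with 2 members higher and 1 lower (Pabpc1, edgeR adjusted p = 0.0101).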
